A study of Homo sapiens with 3 samples.

Results

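The genes described here are 10 transcription factors of mesenchymal lineages, namely TWIST1, TWIST2, SNAI1, SNAI2, ZEB1, ZEB2, PRRX1, RUNX2, SOX9 and PPARG. They were chosen by name, and all 10 were found, on 11 loci, among 22714 gene names in the deposited tables. Each value comes from TC32, an established cell line of Ewing sarcoma, a bone and soft tissue tumour driven by a fusion of EWSR1 with the ETS factor FLI1. There were 3 RNA-seq libraries, with 1 library per group. The first carried a knockdown of EWS-FLI1, and its title abbreviates this as shEF while its column is headed dEF. The second came from cells given YK-4-279, a small molecule described as an inhibitor of the fusion protein, at 3 µM for 15 h, and is called YK below. The third is labelled wild-type control, and it is not stated whether those cells had vehicle (DMSO, for the compound) or a control hairpin. The duration of the knockdown is not given in the sources used here. All of the cells grew in the same serum-containing medium.

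Mesenchymal cells give rise to bone, cartilage, fat and connective tissue, and transcription factors set which of these a cell becomes. TWIST, SNAI and ZEB proteins bind E-box sequences and are best known for switching off epithelial genes such as CDH1 when cells become mobile. PRRX1 marks early limb and skull mesenchyme, RUNX2 drives bone formation, SOX9 cartilage and PPARG fat. Ewing sarcoma cells are thought to derive from a mesenchymal or neural crest progenitor whose differentiation the fusion protein blocks.

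The unit of the deposited values is FPKM, a fragment count adjusted for transcript length and library depth. Deposited FPKM of named genes differed several-fold in overall scale between libraries, so each library was multiplied by 1 factor, 1.18 for knockdown, 1.92 for YK and 0.421 for control, which sets the median gene with a value above 0 in all 3 libraries to the same level. A relative log2 ratio is the difference of log2(scaled FPKM + 1). An absolute relative log2 ratio of at least 1 made a call, higher or lower, and genes with a mean deposited FPKM of at least 1 were compared, 9939 in all. With 1 library per group there is no test and no p-value, and higher and lower describe these libraries. Standard errors (SE) and 95% intervals cover counting error only and rest on estimated fragments. The median compared gene stood at -0.50 in knockdown against control and at -0.38 in YK against control, because the factors were set over scarcer genes too. FLI1, whose 3' part lies in the fusion transcript, had 1.48 FPKM in the knockdown library, 8.29 in the YK library and 65.9 in the control library as deposited, and 1.75, 15.9 and 27.8 after scaling. EWSR1, whose 5' part lies there, had 40.7, 36.3 and 247 FPKM in the same order as deposited, and 47.9, 69.6 and 104 after scaling. Each library is bulk RNA, in which fewer cells of a kind and less RNA per cell cannot be told apart. Of 7 Ewing sarcoma markers, 5 reached 1 scaled FPKM in the knockdown library, 6 in the YK library and 6 in the control library, with summed levels of 36.8, 217 and 339 scaled FPKM. CD99, which is among these 7 markers, was listed at 0 in all 3, and the reason was not tested.

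Promoter sequences from RefSeq (GRCh38.p14), which cover 250 bases before to 50 bases after a transcription start, were found for 6 of the 10 factors. None was available for TWIST1, SNAI1, SNAI2 and SOX9, so TWIST1 and SNAI2, which were among the factors called below, could not be shown. The deposited values were made on GRCh37, so these sequences show the genes and place no reads. The RUNX2 starts are shown because RUNX2 was among the factors called below and its locus value cannot separate them. The ZEB1 and ZEB2 starts are shown because the ratio of ZEB1 to ZEB2 was highest in the knockdown library. Capitals mark GGAA, the core bound by ETS factors such as FLI1, and ACCACA, the core bound by RUNX factors, on either strand (TTCC and TGTGGT where they lie on the other strand). No capitals of the 2 motifs overlap in these 4 sequences.
RUNX2 distal start, chr6:45328080-45328379, plus strand: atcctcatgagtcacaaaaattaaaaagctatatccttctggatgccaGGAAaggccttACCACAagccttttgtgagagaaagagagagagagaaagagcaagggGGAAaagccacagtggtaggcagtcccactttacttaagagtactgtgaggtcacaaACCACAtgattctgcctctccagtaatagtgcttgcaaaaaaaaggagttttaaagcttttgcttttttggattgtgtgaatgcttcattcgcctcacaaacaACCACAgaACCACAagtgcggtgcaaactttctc
RUNX2 proximal start, chr6:45422025-45422324, plus strand: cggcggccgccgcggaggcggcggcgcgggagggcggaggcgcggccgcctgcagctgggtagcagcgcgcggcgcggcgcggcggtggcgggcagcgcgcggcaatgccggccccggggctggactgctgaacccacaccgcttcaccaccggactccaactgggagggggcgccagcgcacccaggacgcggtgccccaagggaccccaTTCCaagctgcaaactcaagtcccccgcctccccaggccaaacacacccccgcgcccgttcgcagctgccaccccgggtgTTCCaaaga
ZEB1 first start, chr10:31318167-31318466, plus strand: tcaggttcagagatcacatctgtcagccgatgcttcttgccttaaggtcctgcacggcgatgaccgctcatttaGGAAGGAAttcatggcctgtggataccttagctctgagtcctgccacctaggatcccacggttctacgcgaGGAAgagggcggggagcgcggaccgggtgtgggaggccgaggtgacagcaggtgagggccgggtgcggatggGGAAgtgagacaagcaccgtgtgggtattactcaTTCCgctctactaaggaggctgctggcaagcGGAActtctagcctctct
ZEB2 start, chr2:144520070-144520369, minus strand: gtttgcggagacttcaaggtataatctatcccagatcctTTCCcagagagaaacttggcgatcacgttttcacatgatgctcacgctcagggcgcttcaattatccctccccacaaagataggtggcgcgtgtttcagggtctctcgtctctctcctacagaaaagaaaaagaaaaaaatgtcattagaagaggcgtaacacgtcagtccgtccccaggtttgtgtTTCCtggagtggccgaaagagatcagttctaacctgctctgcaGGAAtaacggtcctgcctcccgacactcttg

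The distal RUNX2 sequence held 4 matches to ACCACA and the proximal one 0, where 13.1% of 35116 promoters of this length held at least 1. GGAA is short and stood in 95.5% of promoters, with 2 matches at each RUNX2 start, 6 at the first ZEB1 start and 3 at ZEB2. The first of 7 ZEB1 starts also held GGAAGGAA, the tandem form, which contains GGAA a second time and stood in 3.67% of promoters, while the other 6 ZEB1 starts held 0. CACCTG, the E-box form preferred by SNAI and ZEB proteins and 1 case of the general E-box CANNTG, had 1 match there, and 20.6% of promoters had at least 1. The general E-box stood in 68.7% of promoters, with 2 matches at the first ZEB1 start, 1 at ZEB2, 2 at the distal and 3 at the proximal RUNX2 start. These matches describe letters in a window and not bound sites.

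Among the 10 factors, ZEB1 was the most abundant in the knockdown library, and TWIST1 was in the YK library and in the control library. With knockdown the order of scaled FPKM was ZEB1 at 6.27, SNAI2 at 4.92, TWIST1 at 4.85, RUNX2 at 4.14, ZEB2 at 3.71, PRRX1 at 0.766, SNAI1 at 0.287, SOX9 at 0.167 and PPARG at 0.0376, and TWIST2 was listed at 0. SNAI2 and TWIST1 could not be told apart there by their counting intervals, and neither could SNAI1 and SOX9 or PPARG and TWIST2. With YK the first 5 places went to TWIST1 at 15.5, ZEB1 at 3.34, ZEB2 at 2.79, PRRX1 at 2.13 and RUNX2 at 1.64, followed by SNAI1 at 0.559 and SNAI2 at 0.413, whose intervals overlapped. PPARG at 0.165, SOX9 at 0.141 and TWIST2 at 0.0339 came last, with overlapping intervals from neighbour to neighbour. In the control library the first 5 were the same factors in the same order as with YK, with TWIST1 at 26.3, ZEB1 at 6.32, ZEB2 at 5.65, PRRX1 at 2.11 and RUNX2 at 1.46. SNAI2 at 0.754 and SNAI1 at 0.367 followed, and the intervals of neighbours down to SNAI1 did not overlap. PPARG at 0.0272 and SOX9 at 0.0243 came next and TWIST2 was listed at 0, again with overlapping intervals.

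**Figure D1:**
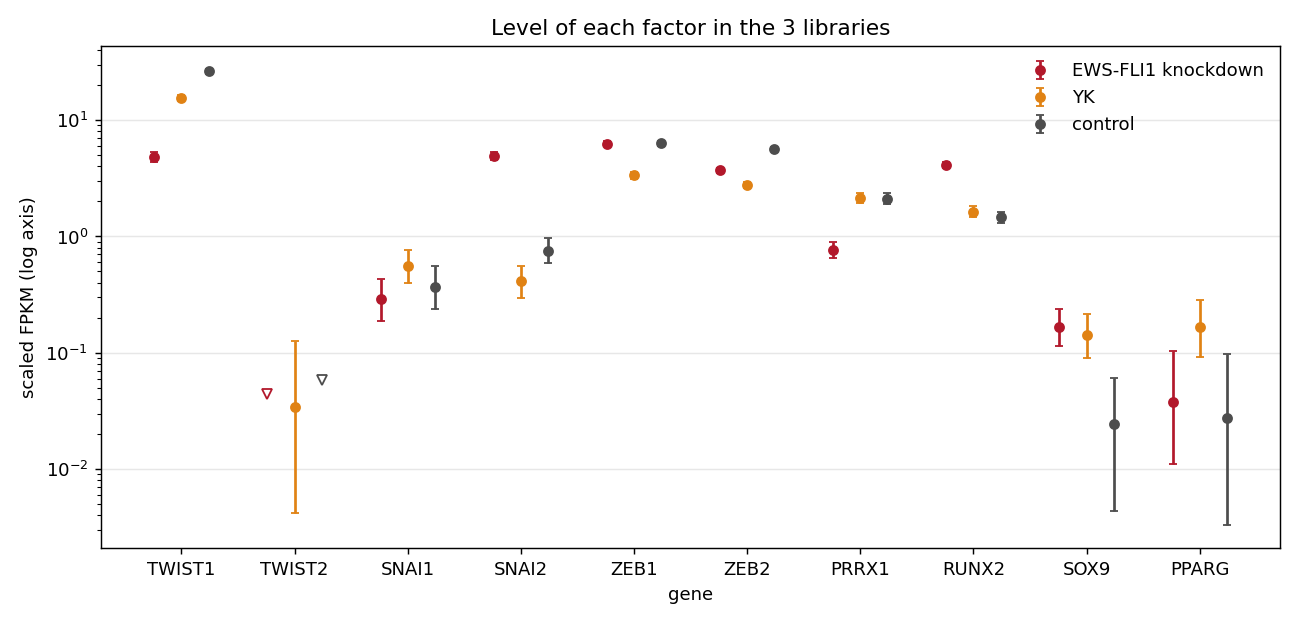
Scaled FPKM (log axis) of each factor in the knockdown, YK and control libraries; bars are 95% counting intervals from estimated fragments, and open triangles mark genes listed at 0, drawn at the level of 3 fragments. TWIST1 stands at 4.85, 15.5 and 26.3 in the 3 libraries, and SNAI2 at 4.92, 0.413 and 0.754.

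Shares within 1 library do not depend on the scaling between libraries. TWIST1 made up 19.3% of the FPKM summed over the 10 factors in the knockdown library (SE 0.82 percentage points), 58.0% with YK (SE 0.90) and 61.2% in the control (SE 0.72). SNAI2 made up 19.6% in the knockdown library, 1.55% with YK and 1.75% in the control. RUNX2, with the locus it shares, made up 16.5% in the knockdown library, 6.13% with YK and 3.40% in the control. The knockdown library thus held a mixture in which 5 factors lay between 14.7% and 24.9% each, while TWIST1 alone exceeded all other factors together in the YK and control libraries. ZEB1 had 24.9% in the knockdown library, 12.5% with YK and 14.7% in the control. ZEB2 had 14.7% in the knockdown library, 10.4% with YK and 13.1% in the control.

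**Figure D2:**
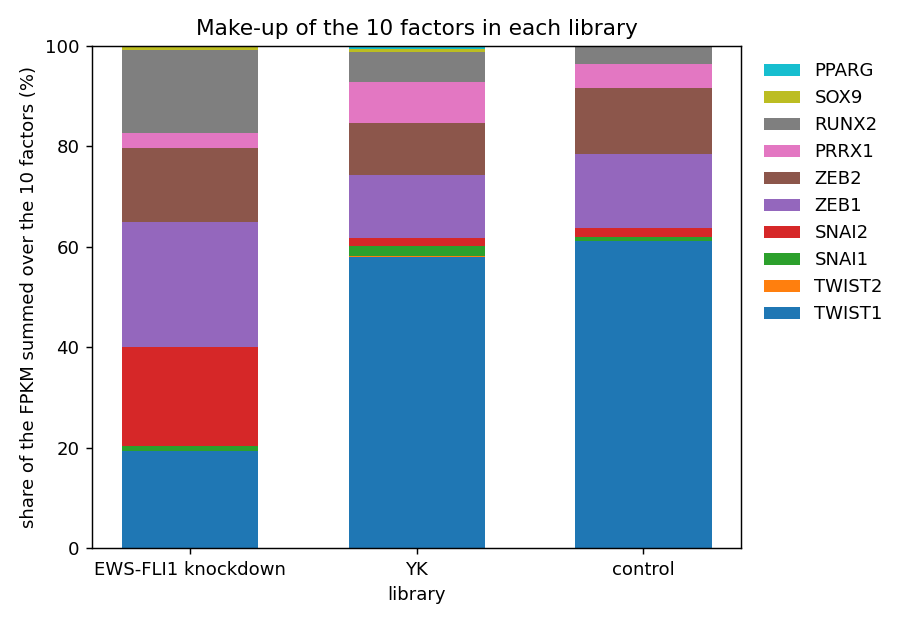
Share (%) of the FPKM summed over the 10 factors that each factor takes in the knockdown, YK and control libraries. TWIST1 takes 19.3% with knockdown, 58.0% with YK and 61.2% in the control, and SNAI2 takes 19.6%, 1.55% and 1.75%.

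Of the 10 factors 6 could be compared, because TWIST2, SNAI1, SOX9 and PPARG had a mean deposited FPKM under 1. PRRX1 passed that minimum through the control library, where its deposited value was 5.00 FPKM, while RUNX2 and SNAI2 passed through the knockdown and control libraries. In knockdown against control, 2 of the 6 compared factors, SNAI2 and RUNX2, were higher, 1, TWIST1, was lower, and ZEB1, ZEB2 and PRRX1 were neither. Over all compared genes 43.0% were called in this comparison, 9.17% higher and 33.8% lower, so 3 of 6 called is near the background and is no result about the factors as a group. Scaled on the compared genes alone, 34.2% were called, 17.3% higher and 17.0% lower, and the same 3 factors were called. Without scaling 74.4% were called, 3.03% higher and 71.4% lower, and TWIST1, ZEB1, ZEB2 and PRRX1 were lower. For YK against control 0 of 6 were called, where 9.74% of compared genes were, 1.56% higher and 8.18% lower. Scaled on the compared genes alone this share was 4.11%, 2.41% higher and 1.69% lower, with 0 of 6 called. Without scaling it was 92.7%, 0.573% higher and 92.2% lower, and all 6 were lower. In knockdown against YK, SNAI2 was higher and TWIST1 lower, 2 of 6, where 30.1% of compared genes were called, 11.7% higher and 18.4% lower. Scaled on the compared genes alone 29.8% were called, 14.5% higher and 15.3% lower, and RUNX2 joined the higher ones. Without scaling 26.6% were called, 21.5% higher and 5.08% lower, and SNAI2, ZEB1 and RUNX2 were higher. The 3 comparisons share libraries with each other, so their values are given side by side and not as separate evidence.

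**Figure D3:**
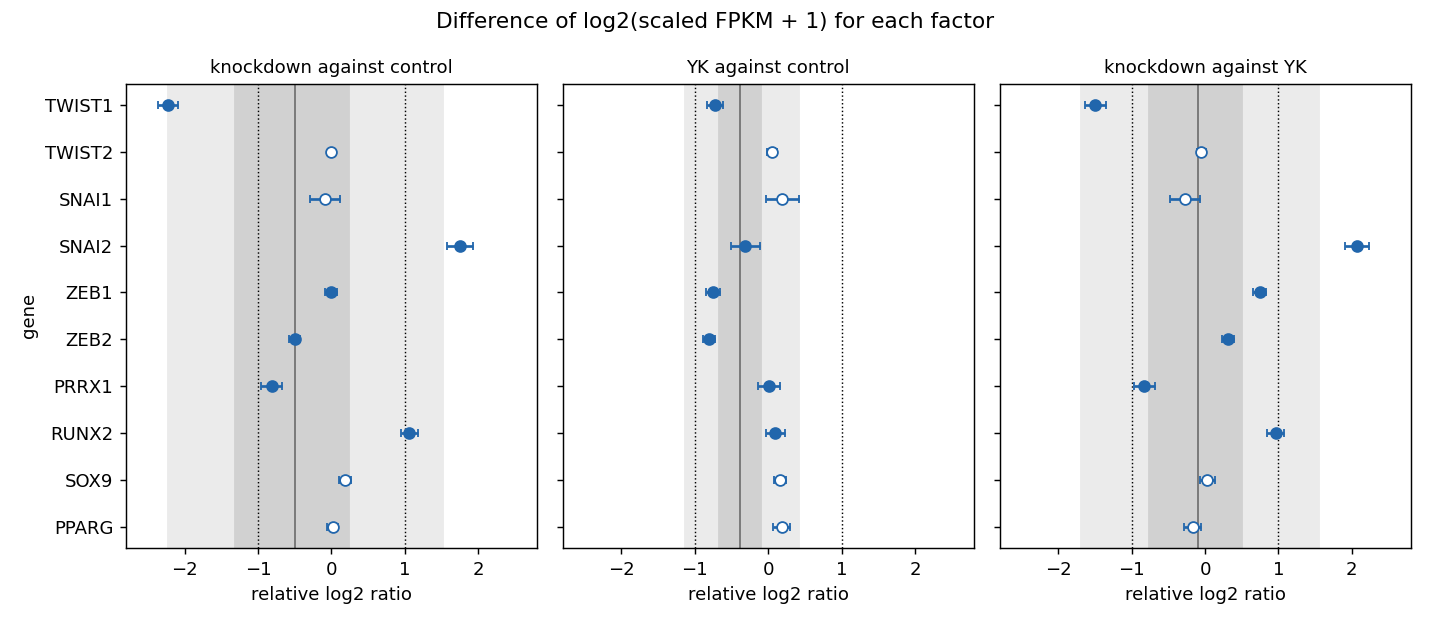
Relative log2 ratio of each factor in the 3 comparisons, with bars of 95% counting error; filled points had a mean of at least 1 FPKM and open points had less. Dark and light bands hold the middle 50% and 90% of all 9939 compared genes, the line is their median and dotted lines mark the threshold; in knockdown against control TWIST1 lies at -2.22, SNAI2 at 1.76 and RUNX2 at 1.06.

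TWIST1 encodes a basic helix-loop-helix factor of mesoderm and cranial mesenchyme that dimerises with E proteins. It had 4.11 FPKM in the knockdown library, 8.09 in the YK library and 62.5 in the control library as deposited, from about 394, 1062 and 1599 estimated fragments. Scaled, these were 4.85, 15.5 and 26.3 FPKM. The knockdown library was the low one, and the counting intervals of the 3 libraries did not overlap. The relative log2 ratio was -2.22 (SE 0.07) in knockdown against control, a 4.67-fold lower level with 1 added, and it lay at percentile 5.03 of all compared genes. It was -0.73 (SE 0.05) in YK against control, short of the threshold, and -1.50 (SE 0.07) in knockdown against YK. Abundant genes were generally low in the knockdown library. Of 5 equal groups of compared genes by level, the highest had a median ratio of -1.55 and the group below it -1.04. TWIST1 stood at -1.23 against control once the median of the 500 genes nearest to it in level was taken off. Among all named genes above 0 in a library TWIST1 ranked at percentile 74.1 with knockdown, 86.6 with YK and 86.5 in the control.

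TWIST2, its close paralogue, known from skin and bone precursors, was listed at 0 in the knockdown library, at 0.0177 FPKM with YK and at 0 in the control. The value with YK corresponds to about 2 fragments. A count of 0 allows up to 3 fragments, or 0.0439 scaled FPKM in the knockdown library and 0.0587 in the control, so no difference could be seen at this depth and no fold is given.

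SNAI2 encodes Slug, a zinc finger repressor of neural crest and mesenchyme. It had 4.17 FPKM in the knockdown library, 0.216 in the YK library and 1.79 in the control library as deposited, from about 582, 41 and 67 fragments. Scaled, these were 4.92, 0.413 and 0.754 FPKM. The knockdown library stood alone at the high end, and the interval of the YK library (0.295 to 0.558) lay just below that of the control (0.587 to 0.962). The relative log2 ratio was 1.76 (SE 0.09) in knockdown against control, at percentile 96.1 of compared genes, and 2.07 (SE 0.08) in knockdown against YK, at percentile 97.7. With nothing added, scaled SNAI2 was 6.53-fold higher in the knockdown library than in the control (95% interval 5.04 to 8.50). Set against control, the YK library gave a relative log2 ratio of -0.31 (SE 0.10), which was 1.00 when deposited ratios were centred on the median gene instead. The call in knockdown against control was lost with a pseudocount of 5 (0.79) and without scaling (0.89).

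SNAI1 encodes Snail, the paralogue of SNAI2 and the best known direct repressor of CDH1. It had 0.244 FPKM in the knockdown library, 0.292 in the YK library and 0.870 in the control library as deposited, or 0.287, 0.559 and 0.367 scaled. About 24, 39 and 23 fragments stood behind these values, and the intervals of the knockdown and YK libraries each overlapped that of the control. The balance within the SNAI family could be read inside each library, free of scaling. SNAI2 FPKM was 17.1 times that of SNAI1 in the knockdown library (interval 11.2 to 26.5), 0.739 times with YK (0.459 to 1.16) and 2.06 times in the control (1.24 to 3.40). The 3 intervals did not overlap, with the knockdown library highest and the YK library lowest.

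ZEB1 and ZEB2 encode large zinc finger and homeobox proteins that repress epithelial genes through paired E-boxes. ZEB1 had 5.32 FPKM in the knockdown library, 1.74 in the YK library and 15.0 in the control library as deposited, or 6.27, 3.34 and 6.32 scaled. ZEB2 had 3.14, 1.45 and 13.4 FPKM in the same order, or 3.71, 2.79 and 5.65 scaled. For ZEB1 the YK library was the low one and the knockdown and control intervals overlapped, whereas for ZEB2 all 3 libraries stood apart. Neither gene reached the threshold. ZEB1 stood at -0.01 (SE 0.04) in knockdown against control, or 0.56 on the scale of the compared genes, and at -0.75 (SE 0.05) in YK against control. ZEB2 stood at -0.50 (SE 0.04) and -0.81 (SE 0.04), with the median compared gene at -0.50 and -0.38. Inside each library ZEB1 FPKM was 1.69 times that of ZEB2 with knockdown (interval 1.59 to 1.81), 1.20 times with YK (1.10 to 1.31) and 1.12 times in the control (1.04 to 1.20). The knockdown interval lay above both others, which overlapped.

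PRRX1, the paired-related homeobox factor, stood on 2 loci that differed in pattern. The locus named PRRX1 alone had 0.129 FPKM in the knockdown library, 0.572 in the YK library and 0.187 in the control library as deposited. The locus whose name joins MROH9 and PRRX1, neighbouring genes on the same strand whose spans do not overlap in GENCODE 29, had 0.521, 0.541 and 4.81 FPKM. The joined locus therefore supplied 80.1% of the PRRX1 sum with knockdown, 48.6% with YK and 96.3% in the control. Summed and scaled, PRRX1 had 0.766 FPKM in the knockdown library, 2.13 in the YK library and 2.11 in the control library, with the knockdown library low and the other two overlapping. The relative log2 ratio of the sum was -0.82 (SE 0.07) in knockdown against control and 0.01 (SE 0.07) in YK against control. For the locus named PRRX1 alone these ratios were 0.10 and 0.96, and for the joined locus -0.91 and -0.57. The value of PRRX1 thus rests on which locus is read, and reads of MROH9 in the joined locus could not be separated.

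RUNX2, the runt-domain factor required for osteoblasts, was measured only on a locus joined with SUPT3H, a gene of the opposite strand whose span overlaps it. No strand setting of the counting is given in the sources used here, so reads of the 2 genes cannot be told apart. The locus had 3.51 FPKM in the knockdown library, 0.855 in the YK library and 3.48 in the control library as deposited, or 4.14, 1.64 and 1.46 scaled, from about 1149, 384 and 304 fragments if all came from RUNX2. The scaled knockdown value was the high one, and the intervals of YK and control overlapped. The relative log2 ratio was 1.06 (SE 0.06) in knockdown against control, at percentile 91.5 of compared genes, 0.10 (SE 0.07) in YK against control and 0.96 (SE 0.06) in knockdown against YK. The call in knockdown against control rests on the scaling, since the deposited values were alike (0.01 without scaling). It was also lost with a pseudocount of 5 (0.50) and at a threshold of 1.5, and without joined names RUNX2 had no value. Within a library RUNX2 FPKM was 0.853 times that of TWIST1 with knockdown (interval 0.760 to 0.958), 0.106 times with YK (0.0938 to 0.119) and 0.0556 times in the control (0.0490 to 0.0629).

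SOX9 and PPARG, the lead factors of cartilage and fat, were scarce in all 3 libraries. SOX9 had 0.141 FPKM in the knockdown library, 0.0738 in the YK library and 0.0578 in the control library as deposited, from about 32, 23 and 3 fragments. Scaled, the ratio to control was 6.85 with knockdown (interval 2.50 to 40.7) and 5.81 with YK (2.05 to 35.4). PPARG had 0.0319 FPKM in the knockdown library, 0.0863 in the YK library and 0.0647 in the control library as deposited, from about 4, 14 and 2 fragments. Its scaled ratio to control was 1.38 with knockdown (0.214 to 16.5) and 6.07 with YK (1.43 to 56.3). Loci without a gene name had a median scaled ratio to control of 3.28 with knockdown and 5.81 with YK, and their part in the ratios of SOX9 and PPARG was not tested.

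The compared genes nearest to each called factor in the plane of its ratios to control, over these 3 libraries, were as follows. CBFB, FASTKD1 and RABL3 lay nearest to TWIST1, at distances of 0.016, 0.017 and 0.020 on the log2 scale. CBFB had 18.4 FPKM in the knockdown library, 32.6 in the YK library and 247 in the control library as deposited, and its ratios to control were -2.21 with knockdown and -0.72 with YK. PLOD2, HYOU1 and CXCL16 lay nearest to SNAI2, at 0.024, 0.026 and 0.070. PLOD2, a lysyl hydroxylase of collagen, had 33.5 FPKM in the knockdown library, 4.63 in the YK library and 26.5 in the control library. TMED3, SERPING1 and HOXB3 lay nearest to RUNX2, at 0.0063, 0.018 and 0.022. HOXB3, a homeobox factor, had 3.14 FPKM in the knockdown library, 0.746 in the YK library and 2.94 in the control library.

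Genes tied to the work of these factors were then examined on lists written from general knowledge. Earlier results of these data were known when the lists were written, so the lists are not independent of them. Of 25 epithelial genes that SNAI and ZEB factors are known to repress, 20 had a mean under 1 FPKM, and 0 of the 5 compared were called in knockdown against control or in YK against control. Their median relative log2 ratios were 0.38 with knockdown and -0.18 with YK, beside -0.50 and -0.38 over all compared genes. Of all compared genes 43.0% were called with knockdown and 9.74% with YK. The sign of a list median depended on the scaling. Without it the medians of all 9 lists were negative in both comparisons with control, except the mesenchymal list in the knockdown, and scaled on the compared genes all were positive, from 0.24 to 2.99 with knockdown and from 0.01 to 0.99 with YK. CDH1, which encodes E-cadherin, lay under the minimum. As deposited its values were 0.295 FPKM in the knockdown library, 0.224 in the YK library and 0.182 in the control library. Scaled, these were 0.348, 0.429 and 0.0768 FPKM. Loci without a gene name had a median scaled ratio to control of 3.28 with knockdown and 5.81 with YK. Their part in the scaled values of CDH1 was not tested. OVOL2, CRB3 and PKP3 were listed at 0 in all 3 libraries. KRT18, a keratin, was the most abundant of the 5, with 4.13 scaled FPKM in the knockdown library, 3.85 with YK and 2.16 in the control. As deposited KRT18 had 3.5 FPKM in the knockdown library, 2.0 with YK and 5.1 in the control.

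Mesenchymal adhesion and cytoskeleton genes had 11 of 14 compared members higher and 1 lower in knockdown against control, with a median of 2.57, which was 1.88 without scaling, beside 9.17% higher and 33.8% lower over all compared genes. SPARC, a matrix glycoprotein, had 724 FPKM in the knockdown library, 26.1 with YK and 23.5 in the control as deposited. FN1, fibronectin, had 116, 7.63 and 1.92 FPKM in the same order, and ACTA2, smooth muscle actin, had 83.3, 26.6 and 0.778. Their relative log2 ratios with knockdown were 6.30, 6.25 and 6.22. S100A4, a small calcium-binding protein, was the lower one at -1.96. With YK against control 6 of 14 were higher and 0 lower, with a median of 0.62, which was -0.83 without scaling. Over all compared genes 1.56% were higher and 8.18% lower in that comparison. ACTA2, FN1 and TNC, tenascin C, led there at 5.29, 3.11 and 2.33. The list was chosen with such values known and is not independent of them. Of 6 fibroblast markers, 5 reached 1 scaled FPKM in the knockdown library, 4 with YK and 3 in the control, with summed levels of 47.3, 25.7 and 34.3. These markers went both ways. DCN, at 1.39 with knockdown and 11.4 in the control, and THY1 stood lower with knockdown, and LUM, FAP, PDGFRA and PDGFRB higher. LUM alone had 29.5 with knockdown. The 4 endothelial markers summed to 0.526, 1.05 and 0.170 scaled FPKM in the knockdown, YK and control libraries, with CDH5 listed at 0 in the knockdown library. The 3 leukocyte markers summed to 22.4, 13.2 and 26.2, of which CD68 made nearly all, and the 4 epithelial markers to 1.24, 1.94 and 1.16, with KRT19 listed at 0 in the knockdown library. The part of such cells in these values was not tested.

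Bone genes around RUNX2 had 3 of 7 compared members higher and 2 lower in knockdown against control, with a median of -0.16, where 9.17% of all compared genes were higher and 33.8% lower, and 15 of the 22 genes lay under the minimum. COL1A1, a chain of type I collagen, stood at 1.26 and MSX2, a homeobox factor of skull growth, at 1.11. In contrast DLX5, another homeobox factor of bone, stood at -2.16 and BGLAP, osteocalcin, at -1.36. Values of list genes such as BGLAP include any locus whose name joins them with another gene. With joined names left out, the list median was 0.46 with knockdown and -0.04 with YK, so its sign with knockdown depended on them. SP7, the osteoblast factor that acts after RUNX2, had 0.0213 scaled FPKM with knockdown, 0.0343 with YK and 0.0393 in the control. SPARC, which stands on this list too, was the 1 gene called in YK against control, at 2.23, and the median was -0.06. Of all compared genes 9.74% were called in that comparison, 1.56% higher and 8.18% lower.

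Cartilage genes around SOX9 had 17 of 20 members under the minimum. Of the 3 compared, CYTL1, a secreted cytokine-like protein, was higher at 1.09 in knockdown against control. As deposited CYTL1 had 21.5 FPKM in the knockdown library and 27.1 in the control, so its direction rests on the scaling. SOX6, a partner of SOX9 in chondrocytes, was lower at -1.52 and SOX5 was neither at 0.65 in the same comparison. ACAN, which encodes aggrecan, had 0.495 scaled FPKM with knockdown, 0.538 with YK and 0.331 in the control. As deposited these were 0.420, 0.280 and 0.786 FPKM. COL2A1, the collagen of cartilage, had 0.0700 scaled FPKM with knockdown and 0.0122 with YK, and was listed at 0 in the control. None of the 3 was called in YK against control (0 of 3). The median of the 3 was 0.65 with knockdown and -0.18 with YK. Over all compared genes 9.17% were higher and 33.8% lower with knockdown, and 9.74% were called with YK.

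Fat cell genes around PPARG had 5 of 10 compared members higher and 2 lower in knockdown against control, with a median of 0.90 that was -0.15 without scaling. Over all compared genes 9.17% were higher and 33.8% lower, or 17.3% and 17.0% when scaled on the compared genes. FABP4, a fatty acid carrier, had 78.9 FPKM in the knockdown library, 1.23 with YK and 0.103 in the control, a relative log2 ratio of 6.49 with knockdown and 1.69 with YK. LPIN1, a phosphatidate phosphatase, stood at 2.40 and ANGPTL4, an inhibitor of lipoprotein lipase, at 2.25 with knockdown. FABP5 stood at -1.40, and the lipase LPL at -1.34 with knockdown and -1.31 with YK. CEBPA, the partner of PPARG in fat cells, had 0.121 scaled FPKM with knockdown, 0.142 with YK and 0.149 in the control, and ADIPOQ, adiponectin, had 0.0032 with knockdown and 0.0041 with YK and was listed at 0 in the control. For YK against control 1 of 10 was higher and 1 lower, with a median of -0.12, where 1.56% of all compared genes were higher and 8.18% lower.

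**Figure D4:**
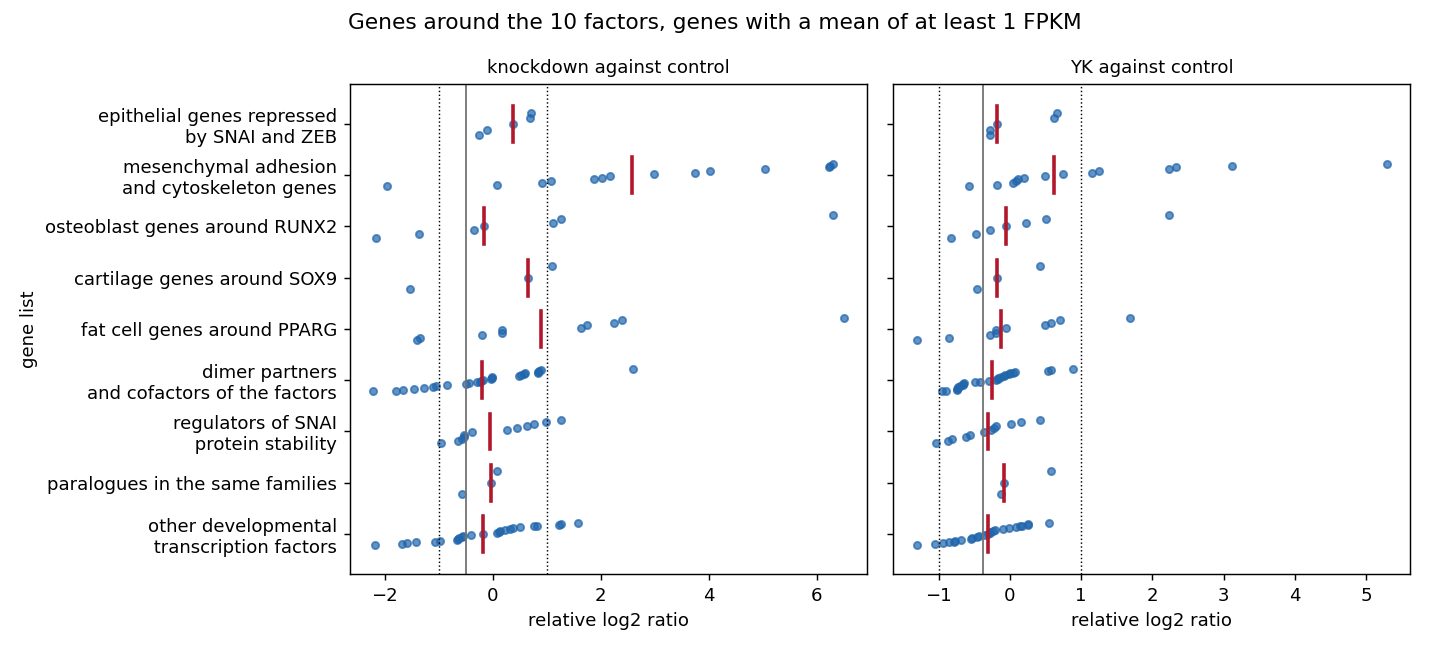
Relative log2 ratio of each compared gene on the 9 lists, in knockdown against control (left) and YK against control (right); red bars are list medians, the grey line is the median of all compared genes and dotted lines mark the threshold. The mesenchymal list has its median at 2.57 with knockdown and 0.62 with YK, and SPARC, FN1, ACTA2 and FABP4 lie farthest to the right with knockdown.

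Dimer partners and cofactors had 1 of 26 compared members higher and 7 lower in knockdown against control, with a median of -0.20, where 9.17% of all compared genes were higher and 33.8% lower, so the lower calls are no trait of this list. In YK against control 0 of 26 were called, with a median of -0.25, where 9.74% of all compared genes were called. AJUBA, a LIM protein that bridges SNAI factors to corepressors, was the higher one at 2.60. CBFB, the partner of all RUNX proteins, stood at -2.21, TCF12, an E protein partner of TWIST1, at -1.80 and the histone deacetylase HDAC1 at -1.66. TCF3 and TCF4, the other E proteins, stood at 0.57 and -0.84. Of 12 compared regulators of SNAI protein stability, LATS2, a kinase, was higher in knockdown against control at 1.27, and CSNK1A1, casein kinase 1, was lower in YK against control at -1.03. The medians of these regulators were -0.05 with knockdown and -0.31 with YK. Over all compared genes 43.0% were called with knockdown and 9.74% with YK.

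Of 13 paralogues of the factors 3 passed the minimum, HAND2, RUNX3 and PPARA, and 0 were called in either comparison with control. Their medians were -0.03 with knockdown and -0.09 with YK. Over all compared genes 43.0% were called with knockdown and 9.74% with YK. HAND2, a bHLH relative of TWIST1, had 2.28 scaled FPKM with knockdown, 6.18 with YK and 3.83 in the control, and RUNX3 had 0.809, 0.738 and 0.847. Of 25 other compared developmental transcription factors, 3 were higher and 5 lower in knockdown against control, with a median of -0.18, beside 9.17% higher and 33.8% lower over all compared genes. GLI3, the effector of Hedgehog signalling, stood at 1.58, TEAD1 at 1.26 and SOX4 at 1.22. As deposited SOX4 had 145 FPKM in the knockdown library and 173 in the control, so its direction rests on the scaling. TEAD1 was nearly level as deposited, at 7.12 FPKM with knockdown and 6.95 in the control. FOXD3, a neural crest factor, and ALX1, a factor of facial mesenchyme, stood at -1.67 and -1.59. In YK against control FOXC2, a forkhead factor of mesenchyme, stood at -1.04, 0 were higher and the median was -0.31. Shares over all compared genes there were 1.56% higher and 8.18% lower.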

How the data were processed

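Gene expression was measured by RNA-seq in 3 libraries of TC32 cells, 1 per group, from cDNA made with a SMARTer kit, per the labels' protocols. The deposited values are FPKM for 88434 loci per library, of which 24751 carry a gene name. The submitters' processing notes name CASAVA 1.8.2, TopHat, Cufflinks 2.2.1 and build GRCh37 (hg19). No source used here names the annotation, the filters or any scaling between libraries.

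Loci of the same name were summed, and a factor was summed over each locus whose name equals or contains it. Each library was divided by its median ratio to the gene-wise geometric mean, taken over 17160 names above 0 throughout. Ratios are differences of log2(scaled FPKM + 1), which understates the change of scarce genes. Depth was estimated from the lowest step of single-transcript olfactory receptor genes, which put 1 fragment in 1 kb at 0.0174 FPKM in the knockdown library, 0.0127 with YK and 0.0651 in the control. Fragments used the longest coding transcript of GENCODE 29, so SE and intervals (Poisson and exact conditional binomial, 95%) are approximate and cover counting error only. The ratio and scaling steps were tested on simulated data. The simulation changed few genes, equally up and down, and held no trend with level. It therefore could not test the scaling under shifts as wide as those seen here. The text names all 10 factors, FLI1 and EWSR1 as a check, up to 3 highest and 3 lowest called genes of each list per comparison with control, and the 3 genes nearest to each called factor. Other genes given by level were chosen after their values were seen. Alternatives changed the scaling, pseudocount, minimum, threshold and handling of joined names or removed the trend with level, and 1 was added after seeing the data. The factors, lists and markers were chosen with earlier results of these data known. Analyses used Python 3.11.15, pandas 2.3.3, numpy 2.4.6 and scipy 1.17.1. The 2 list genes without a locus were not analysed here, and 1 other list gene that the rule names is not reported here.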

Additional observations from a re-analysis of the deposited data

How the results depend on the processing

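With 1 library per group no value has a replicate check, and no paired analysis was possible because no group has a second library. Of the 3 factors called in knockdown against control (SNAI2, RUNX2 and TWIST1), 1 was called with a pseudocount of 5 and 1 with the minimum raised to 5 FPKM (TWIST1 each time). The higher minimum left 3 factors to compare. With a pseudocount of 0.1 PRRX1 was called too, at -1.35, and as deposited TWIST1 was the 1 of these 3 still called. Of 0 called in YK against control, 6 were called as deposited, all lower, and 1 with deposited ratios centred on the median gene (SNAI2). Of 2 called in knockdown against YK, 4 were called with a pseudocount of 0.1, and 1 with a pseudocount of 5, 1 at the minimum of 5 FPKM and 1 at a threshold of 1.5. The cause of the other shifts was not tested. The added scaling on compared genes, chosen after seeing the data, multiplied the libraries by 1.44, 2.12 and 0.325 (knockdown, YK, control) and called 3, 0 and 3 factors in the 3 comparisons, with TWIST1 at -1.62, SNAI2 at 2.15 and RUNX2 at 1.51 in knockdown against control. In the comparisons where SNAI2, RUNX2 and TWIST1 were called, none changed sign under an alternative that gave it a value, and RUNX2 has none without joined names. In YK against control, where neither was called, SNAI2 ran from -1.20 as deposited to 1.00 centred and RUNX2 stood at -1.27 as deposited. Depth limits TWIST2, PPARG and SOX9, which had at most 3 fragments in the control library.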

Other observations

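Several scarce genes on the lists had a mean under the minimum and stood higher in the knockdown library after scaling, given here as values chosen after they were seen. FOXC1, a forkhead factor of mesenchyme, had 2.63 scaled FPKM with knockdown, 0.335 with YK and 0.153 in the control. BMP4, a ligand of bone and limb development, had 0.884, 0.118 and 0.0200, and HAPLN1, a link protein of cartilage matrix, had 1.10, 0.466 and 0.0559. PCK1, a target of PPARG in fat cells, had 2.21 with knockdown, 0.0898 with YK and 0.0830 in the control. TBX5, a limb factor, was high in the YK library, at 0.108 with knockdown, 1.41 with YK and 0.0140 in the control. Loci without a gene name stood at 3.28 times the control with knockdown and 5.81 times with YK on the same scale, and their part in these values was not tested.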
